A study of Homo sapiens with 12 samples.

Results

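H3K4me3, trimethylation of lysine 4 of histone H3, was mapped by CUT&RUN in MKL-1 cells treated with EPZ011989 or with its vehicle. The comparison uses the 4 H3K4me3 peak lists of the 12 libraries in the series, chosen by antibody and treatment label: 2 vehicle and 2 EPZ011989 libraries, on chromosomes 1 to 22. MKL-1 is an established line of Merkel cell carcinoma, a neuroendocrine skin cancer, and EPZ011989 is an inhibitor of the H3K27 methyltransferase EZH2. Vehicle cultures received 1% ethanol. EPZ011989 cultures received 3 µM of the compound in the same 1% ethanol. All cultures were grown for 6 days, with fresh medium on day 3, and each was divided between H3K4me3, H3K27me3 and IgG antibodies. The labels describe duplicate treatment of 1 line, so p-values measure the spread between repeated cultures and libraries of that line. A library pools many cells, and more cells with the mark cannot be told apart from more of the mark per cell.

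H3K4me3 is laid down by the KMT2 and SETD1 methyltransferases around the start sites of active genes, and it is bound by readers such as TAF3 and the ING proteins. The Polycomb complex PRC2, whose catalytic subunit is EZH2, methylates lysine 27 of the same histone and keeps developmental genes silent. Some starts carry both marks at once, a state called bivalent that is typical of CpG-rich promoters of developmental regulators. The comparison asks where H3K4me3 peaks appeared, widened or changed in relative height when EZH2 was inhibited.

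Overlapping peaks of the 4 libraries were merged into 30330 regions. Of these, 14162 lay within 2500 bp of either end of a protein-coding gene, 2985 near an end of another gene only, and 13183 away from every gene end. A peak was present in all 4 libraries at 15726 regions, of which 11032 were at coding gene ends and 3298 away. Regions were also sorted by the H3K27me3 peaks of the vehicle cultures. H3K27me3 peaks of both vehicle libraries overlapped 7429 regions, called H3K27me3-marked here, and those of neither overlapped 20023, called unmarked. Peaks of either EPZ011989 H3K27me3 library overlapped 33 of the 30330 regions. Only 17 of the 30330 regions overlapped an IgG peak in any library, and no region named here did.

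The promoters of 5 genes show what lay under the regions that the results turn on. They are RefSeq windows of GRCh38.p14, from 250 bases before to 50 after the gene's start, written 5′ to 3′ on the gene's own strand. Capitals mark every CG dinucleotide, the main site of DNA methylation and the step that is dense in CpG islands. The start of WNT7A (chr3:13880022-13880321, minus strand) lay in a region that widened with EPZ011989, that of SPRY2 (chr13:80341077-80341376, minus strand) in one whose rank rose, and that of RASGRP2 (chr11:64745299-64745598, minus strand) in one with peaks in the EPZ011989 libraries only. The start of THYN1 (chr11:134253303-134253602, minus strand) lay in a region whose rank fell, and that of DAND5 (chr19:12969326-12969625, plus strand) in one with peaks in the vehicle libraries only.
WNT7A: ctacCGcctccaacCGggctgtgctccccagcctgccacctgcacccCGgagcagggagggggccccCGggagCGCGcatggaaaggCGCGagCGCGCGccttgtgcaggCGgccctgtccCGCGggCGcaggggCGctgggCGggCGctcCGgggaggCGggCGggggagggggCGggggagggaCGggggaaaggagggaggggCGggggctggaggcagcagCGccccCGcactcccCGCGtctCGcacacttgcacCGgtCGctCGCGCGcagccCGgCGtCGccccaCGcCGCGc
SPRY2: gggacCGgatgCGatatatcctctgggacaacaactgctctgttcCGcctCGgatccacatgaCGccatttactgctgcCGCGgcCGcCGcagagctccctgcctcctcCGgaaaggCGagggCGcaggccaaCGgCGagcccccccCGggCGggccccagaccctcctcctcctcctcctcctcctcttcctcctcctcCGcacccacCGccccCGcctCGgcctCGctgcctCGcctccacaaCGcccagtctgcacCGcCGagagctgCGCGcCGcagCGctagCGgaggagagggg
RASGRP2: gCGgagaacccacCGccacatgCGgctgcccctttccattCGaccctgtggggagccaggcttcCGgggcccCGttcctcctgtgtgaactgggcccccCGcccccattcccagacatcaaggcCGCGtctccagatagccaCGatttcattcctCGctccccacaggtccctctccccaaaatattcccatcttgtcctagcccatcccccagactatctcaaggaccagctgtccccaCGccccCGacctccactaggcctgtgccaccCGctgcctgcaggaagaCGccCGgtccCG
THYN1: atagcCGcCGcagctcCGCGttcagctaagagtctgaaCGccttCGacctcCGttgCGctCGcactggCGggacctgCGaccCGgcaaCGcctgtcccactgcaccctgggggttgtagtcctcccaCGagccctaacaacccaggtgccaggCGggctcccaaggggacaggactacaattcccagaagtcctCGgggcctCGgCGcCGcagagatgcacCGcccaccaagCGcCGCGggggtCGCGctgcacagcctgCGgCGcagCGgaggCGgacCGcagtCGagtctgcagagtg
DAND5: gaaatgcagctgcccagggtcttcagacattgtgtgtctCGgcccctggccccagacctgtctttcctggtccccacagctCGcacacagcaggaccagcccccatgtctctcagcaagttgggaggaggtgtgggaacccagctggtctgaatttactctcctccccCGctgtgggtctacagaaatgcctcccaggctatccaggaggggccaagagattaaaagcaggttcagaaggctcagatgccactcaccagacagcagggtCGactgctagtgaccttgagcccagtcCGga
The windows held 40 CG in WNT7A, 30 in SPRY2, 17 in RASGRP2, 31 in THYN1 and 5 in DAND5. CG reads the same on both strands, and 98.1% of the 15101 coding-gene windows of the same length held at least 1. The median was 22 CG over all these windows, 5 where the start lay outside every region and 28 where it lay in a region with peaks in all 4 libraries.

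The 4 lists held 20532 to 23193 peaks. Each peak carries a MACS2 fold, the fragment pileup at its summit relative to a background, with 1 added to both. In every list the folds gave whole fragment counts with one constant background, within 0.02 of a fragment for 100% of peaks. A Poisson −log10 p from these counts and that background lay within 0.05 of the listed one for 98.9% and 98.5% of vehicle peaks. For EPZ011989 replicates 1 and 2 it did so for 88.7% and 99.9%. That background was 0.572 and 0.857 fragments per base in the vehicle libraries and 1.48 and 1.24 in the EPZ011989 libraries, and the shortest peak was 244 and 249 bp against 285 and 289 bp. EPZ011989 replicate 2 had the shortest list, with 5639 regions away from gene ends against 7154 to 7873 in the other libraries. These values move with the groups or with 1 library, and their part in the width and presence results was not tested. Fold was therefore compared only as a rank among the same 15726 regions. The percentile runs from 0 for the lowest fold in a library to 100 for the highest, and a change of rank is a change relative to the other regions.

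The rank order of H3K4me3 shifted toward regions that had carried H3K27me3. With EPZ011989, 2144 of the 15726 regions rose in rank (13.6%) and 1787 fell (11.4%), by limma with Benjamini-Hochberg adjusted p under 0.05. Among the 4817 H3K27me3-marked regions, 1369 rose (28.4%) and 250 fell (5.19%). Among the 8833 unmarked regions, 567 rose (6.42%) and 1274 fell (14.4%). Marked regions were 30.6% of all regions tested, 63.9% of those that rose and 14.0% of those that fell. By place, 15.8% of regions at coding gene ends rose and 12.6% fell, against 7.94% and 7.91% away from gene ends. Among marked regions the share that rose was 30.9% at coding ends and 21.0% away, and among unmarked regions 8.03% and 2.92%. Since ranks are shared out among a fixed set of regions, a rise of one group requires a fall of another.

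The shift was alike in both replicates. The median percentile of marked regions at coding gene ends was 41.5 and 41.6 in the vehicle libraries and 50.8 and 50.4 in the EPZ011989 libraries. Unmarked regions at coding gene ends had medians of 66.5 and 66.8 in vehicle and 63.3 and 64.0 with EPZ011989. Away from gene ends, marked regions had medians of 21.2 and 21.4 in vehicle and 24.5 and 23.9 with EPZ011989, and unmarked regions 16.7 and 17.4 against 12.2 and 12.4. In none of these 4 classes did the EPZ011989 and vehicle libraries overlap. The exact two-sided permutation test gave p = 0.333 for each, the smallest that 2 + 2 libraries allow.

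**Figure D1:**
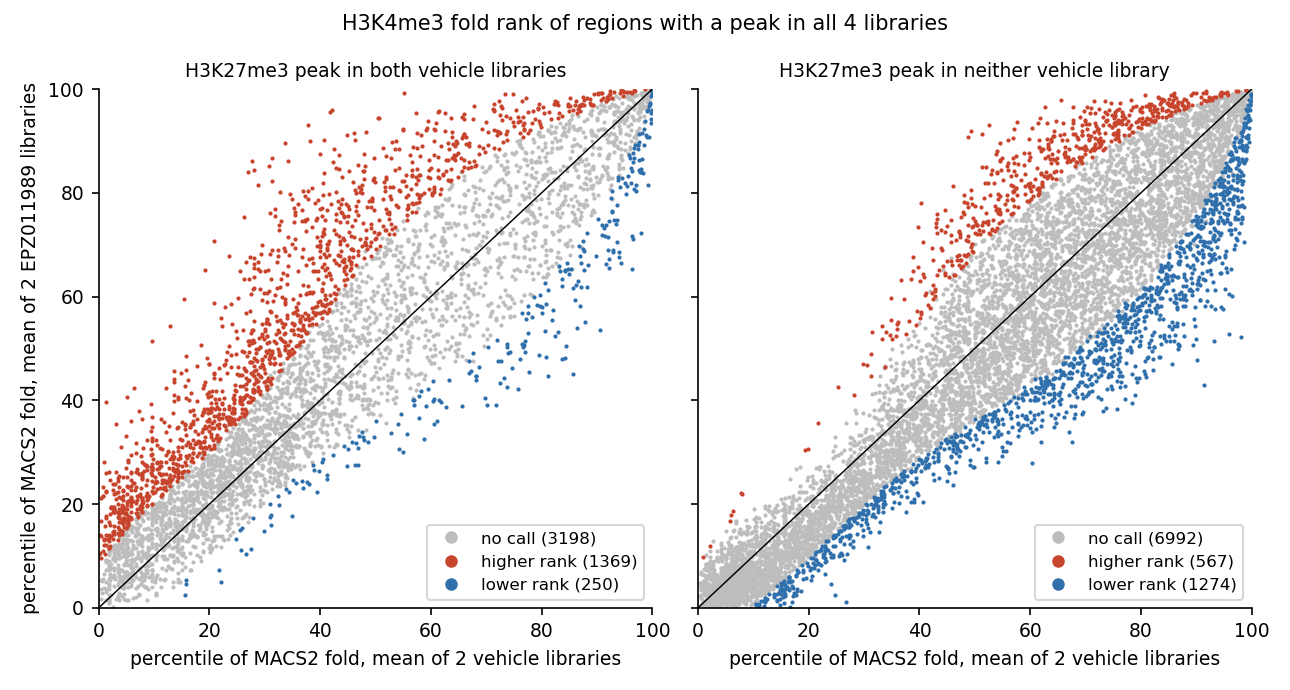
Mean percentile of MACS2 fold in the 2 vehicle libraries (x axis) and the 2 EPZ011989 libraries (y axis), 1 point a region with a peak in all 4 libraries. Points are coloured by the limma call. Left, the 4817 H3K27me3-marked regions, of which 1369 rose and 250 fell. Right, the 8833 unmarked regions, of which 567 rose and 1274 fell. The black line marks equal percentiles.

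Marked regions rose more often than unmarked ones at each starting level. Among regions at vehicle percentiles 0 to 20, 436 of 1250 marked regions rose (34.9%) and 9 of 1677 unmarked regions did (0.537%). At percentiles 40 to 60, 277 of 878 marked (31.5%) and 193 of 1832 unmarked regions rose (10.5%). At percentiles 80 to 100 the shares that rose were 10.5% of 627 and 6.28% of 1832, and those that fell were 20.9% and 28.2%. No test was made of these shares. Regions with an H3K27me3 peak in 1 vehicle library lay between marked and unmarked ones in each of the 5 bins, for rises and for falls.

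**Figure D2:**
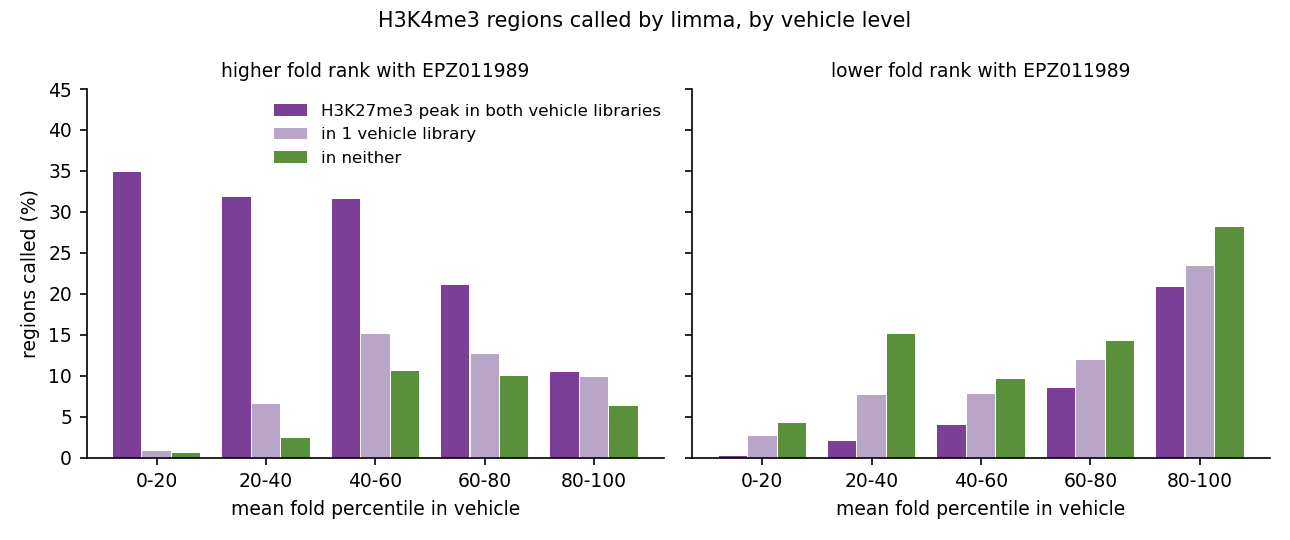
Percent of regions called by limma (y axis) in each of 5 bins of the mean vehicle percentile of fold (x axis), by overlap with H3K27me3 peaks of both, 1 or neither vehicle library. Higher rank is on the left and lower rank on the right. At percentiles 0 to 20, 34.9% of marked and 0.537% of unmarked regions rose.

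The 8 largest rises of rank were all at H3K27me3-marked regions. They included the transcription factor genes TBX2 of the T-box family, DLX3 of the Distal-less homeobox family and ZFHX4, a zinc finger homeobox gene. The region at TBX2 (chromosome 17, 61396988 to 61401143) stood at percentiles 26.4 and 29.0 in vehicle and 81.5 and 90.8 with EPZ011989. Its summit pileups were 25, 32, 178 and 97 fragments in the same order. It rose by 58.5 percentile points (adjusted p = 1.37e-05) and widened, from 2012 and 1867 bp to 4156 and 3717 bp (adjusted p = 0.04). DLX3 (chromosome 17, 49992475 to 49997577) went from percentiles 27.1 and 26.9 to 84.6 and 83.2 (adjusted p = 1.02e-05). ZFHX4 stood at 38.9 and 36.7 in vehicle and 90.3 and 95.8 with EPZ011989.

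The other 5 lay at FZD2, SPRY2, BACE2 and SPTBN1 and in ADGRL2. FZD2, a Frizzled receptor for WNT ligands, stood at percentiles 30.0 and 37.3 in vehicle and 86.8 and 92.4 with EPZ011989. SPRY2, an inhibitor of receptor tyrosine kinase signalling whose promoter is printed above, stood at 45.8 and 38.6 in vehicle and 96.6 and 95.4 with EPZ011989. Both pairs were far apart, and the adjusted p was 1.65e-05 and 1.03e-05. BACE2, an aspartic protease, and SPTBN1, a beta-spectrin of the membrane skeleton, rose by 56.4 and 54.4 points. The region of chromosome 1 from 81799860 to 81804119 in ADGRL2, a latrophilin adhesion receptor, rose by 55.4 points. It was classed as away from gene ends, but it holds a start of ADGRL2 in the promoter table. In all, 327 of the 13183 regions away from gene ends hold a start of that table.

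The 8 largest falls of rank were all at gene starts, and 7 of the 8 regions were unmarked. THYN1, which encodes a thymocyte nuclear protein, stood at percentiles 93.9 and 88.7 in vehicle and 46.4 and 39.5 with EPZ011989, with 123, 122, 107 and 45 fragments at the summit. It fell by 48.4 points (adjusted p = 7e-05). IARS1, the cytosolic isoleucyl-tRNA synthetase, stood at 97.7 and 98.4 in vehicle and 63.9 and 40.4 with EPZ011989. METTL3, the catalytic subunit of the RNA m6A methyltransferase, stood at 88.8 and 90.1 in vehicle and 48.5 and 52.8 with EPZ011989. In each case both EPZ011989 libraries lay below both vehicle libraries. ATP6V0E2, a subunit of the proton-pumping V-ATPase, fell by 43.05 points and KIF20B, a kinesin of cell division, fell by 42.3. DNAJC24, a co-chaperone whose region also holds the start of DCDC1, fell by 41.7. RBM18, an RNA-binding protein, fell by 38.8. ECE1, the endothelin-converting enzyme and the 1 marked region of the 8, fell by 40.5. The widths of these 8 regions did not pass the test, with adjusted p from 0.791 for ATP6V0E2 to 0.972 for ECE1.

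Few regions changed width past the test, and nearly all that widened carried H3K27me3 in vehicle. Width is the number of bases of a region inside a library's peaks, tested on a log2 scale. With EPZ011989, 51 of the 15726 regions were wider (0.324%) and 6 narrower (0.0382%). Of the 51 wider regions 49 were H3K27me3-marked, and of the 6 narrower ones none was. Of the 51, 39 were at coding gene ends, 3 at other ends and 9 away, and 38 had also risen in rank. None of the 51 fell in rank, and 3 of the 6 narrower regions did. At an unadjusted p under 0.05, 1285 regions were wider and 354 narrower. The count of wider regions was 1 without EPZ011989 replicate 1 and 0 without EPZ011989 replicate 2, and 165 and 198 without vehicle replicates 1 and 2. The count of narrower regions was 31, 1, 10 and 7 without the same libraries in turn. Each of these fits leaves 1 library in a group, which is assumed to vary like the pair of the other group. All 51 widening calls, those named in the gene lists included, were thus lost without EPZ011989 replicate 2. With each library's log2 widths centred on their median, 144 regions were wider and 39 narrower.

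WNT7A, a secreted WNT ligand, showed the largest widening at a coding gene end. Its region (chromosome 3, 13878252 to 13880964) spanned 370 and 313 bp in vehicle and 2642 and 2613 bp with EPZ011989, a log2 difference of 2.95 ± 0.29 (SE; adjusted p = 0.0181). The 300 bases printed above lie inside this region. NGFR, the p75 neurotrophin receptor, was covered over 252 bp in each vehicle library and over 1883 and 1910 bp with EPZ011989 (adjusted p = 0.0357). KCNA1, a voltage-gated potassium channel, spanned 322 and 438 bp in vehicle and 2253 and 2426 bp with EPZ011989 (adjusted p = 0.0357). In all 3 genes the EPZ011989 widths were close to each other and far above vehicle. The vehicle peaks were weak, with summits of 5 and 8 fragments at WNT7A, 4 and 5 at NGFR and 6 and 9 at KCNA1. Those at NGFR equal the lowest summit of each vehicle list.

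DAGLA, which makes an endocannabinoid, spanned 678 and 364 bp in vehicle and 3420 and 2581 bp with EPZ011989 (adjusted p = 0.04). A region beyond the end of DLX2, a homeobox gene, spanned 606 and 777 bp in vehicle and 4040 and 3048 bp with EPZ011989 (adjusted p = 0.0181). DLX2 itself starts 4649 bp from that region. Vehicle summits held 9 and 7 fragments at DAGLA and 6 and 7 at the DLX2 region. Of the other largest differences at coding ends, those at TCEA3, SMO, BMPR1B and CD276 did not pass the test, with log2 differences of 2.25 to 2.35 and adjusted p of 0.0533 to 0.0748. These 4 passed with median centring (adjusted p 0.0165 to 0.0282), quantile normalization (0.0232 to 0.0374) and the replicate block (0.0324 to 0.0426). They did not pass with peaks up to 1000 bp apart merged (0.052 to 0.0734). SMO, BMPR1B and CD276 did not pass with lists of equal length (0.0514 to 0.0721). SMO and CD276 did not pass at a −log10 q of at least 5 (0.057 and 0.0585). With 1 library left out the log2 differences of all 4 were 1.90 to 2.60. At CD276, an immune checkpoint ligand, the widths were 311 and 502 bp in vehicle and 2107 and 1667 bp with EPZ011989. Without EPZ011989 replicate 1 the adjusted p was 0.0643 for WNT7A and DLX2, 0.0903 for NGFR, 0.085 for KCNA1 and 0.116 for DAGLA, and without EPZ011989 replicate 2 it was 0.121 to 0.146 for these 5. SMO is the signal transducer of the hedgehog pathway, and BMPR1B a BMP receptor.

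Of the 4 largest widenings away from gene ends, 1 passed the test. It lay in ESRRB, an orphan nuclear receptor, on chromosome 14 from 76376090 to 76378118, and spanned 291 and 346 bp in vehicle and 2029 and 1665 bp with EPZ011989 (adjusted p = 0.04). Regions near FOXB2, in RGMA and in LHX5 had log2 differences of 2.15, 2.11 and 1.95 with adjusted p of 0.152, 0.0949 and 0.23. All 4 were H3K27me3-marked. Vehicle summits in the ESRRB region held 9 and 8 fragments. Without EPZ011989 replicate 1 or 2 the adjusted p of the ESRRB region was 0.11 or 0.146.

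**Figure D3:**
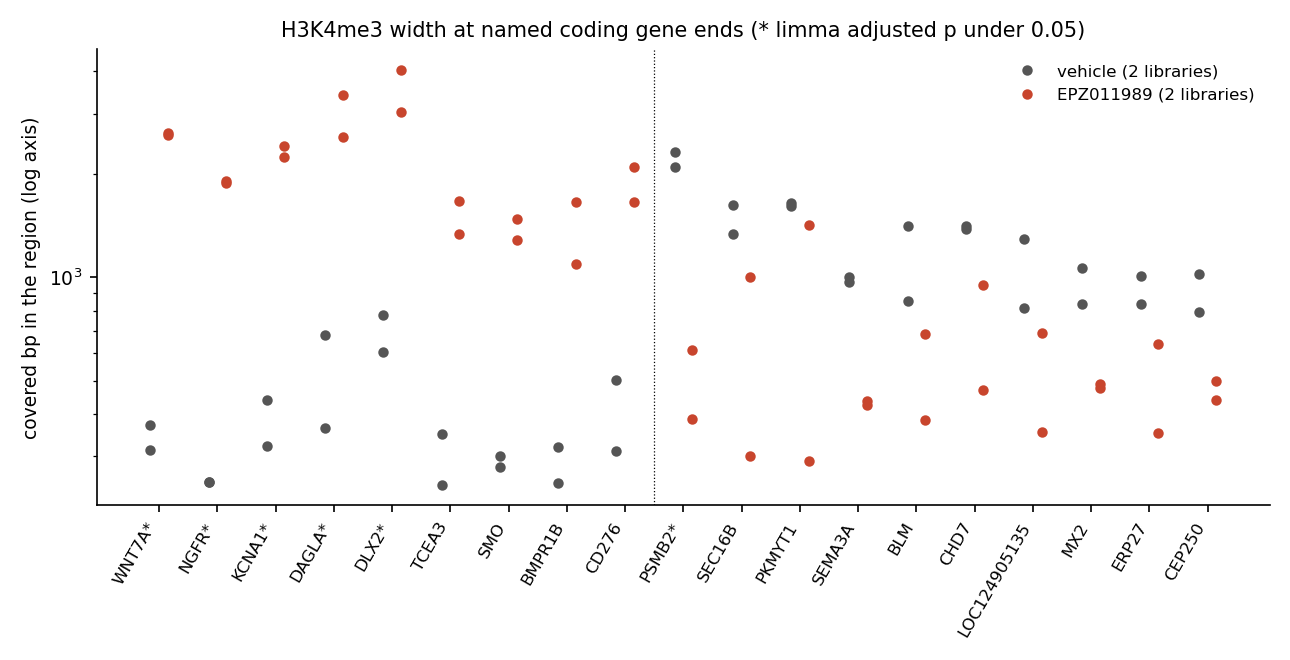
Covered bases (y axis, log scale) in the 2 vehicle libraries (grey) and the 2 EPZ011989 libraries (red) at 9 of the 10 coding gene ends with the largest widening, left of the dotted line, and the 10 with the largest narrowing. Asterisks mark a limma adjusted p under 0.05. WNT7A went from 370 and 313 bp to 2642 and 2613 bp, and PSMB2 from 2104 and 2324 bp to 616 and 386 bp.

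Narrowing passed the test at 6 regions, 2 at coding ends and 4 away. In the gene body of SLC24A2, a sodium, potassium and calcium exchanger, a region of chromosome 9 from 20236390 to 20240349 spanned 3741 and 3960 bp in vehicle and 478 and 506 bp with EPZ011989 (adjusted p = 0.0039). Its fold also fell by 25.6 percentile points. A region 2228 bp from the start of PSMB2, a proteasome subunit, spanned 2104 and 2324 bp in vehicle and 616 and 386 bp with EPZ011989 (adjusted p = 0.0433). Its adjusted p was 0.121 without EPZ011989 replicate 2 and 0.159 with peaks up to 1000 bp apart merged. The region over the PSMB2 start itself is a separate one and did not narrow past the test, with 3083, 3401, 3355 and 3554 bp. The other 9 of the 10 largest narrowings at coding ends, at SEC16B, PKMYT1, SEMA3A, BLM, CHD7, LOC124905135, MX2, ERP27 and CEP250, had adjusted p of 0.249 to 0.528.

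Over all regions the widths of the 2 EPZ011989 libraries straddled those of vehicle. The median width at coding gene ends was 2409 and 2442 bp in vehicle and 2664 and 2350 bp with EPZ011989. For marked coding ends it was 1916.5 and 1941 bp in vehicle and 2385 and 2072 bp with EPZ011989, and both EPZ011989 values lay above vehicle. For unmarked coding ends it was 2658.5 and 2689 bp against 2806.5 and 2491 bp, which overlap. The exact two-sided permutation p was 0.333 for the marked and 1 for the unmarked ends.

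Where a region held exactly 1 start of the promoter table, the edges of its peaks could be placed upstream or downstream of that start. This was so for 6277 regions, of which 1955 were marked. In the marked regions the peaks reached a median of 1197 and 1214 bp downstream in vehicle and 1443 and 1263 bp with EPZ011989. Upstream they reached 652 and 670 bp in vehicle and 823 and 707 bp with EPZ011989. Both sides lay further out in both EPZ011989 libraries, by a median of 127.5 bp downstream and 85 bp upstream. In the 3388 unmarked regions the median change was −21.25 bp downstream and −0.5 bp upstream. At SMO the peaks extended by 833 bp downstream and 262 bp upstream, and at CD276 by 1054.5 and 426 bp. Neighbouring peaks joined more often than they split: 134 regions had 1 peak in both EPZ011989 libraries and 2 or more in both vehicle libraries, and 56 had the reverse.

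Peaks appeared with EPZ011989 at a similar share of regions at coding gene ends and away from all gene ends, whereas peaks disappeared mostly away. A peak was gained, present in both EPZ011989 and neither vehicle library, at 584 of the 30330 regions (1.93%). It was lost, the mirror image, at 846 (2.79%). Of the gained regions 260 were at coding gene ends, 67 at other ends and 257 away. That was 1.84%, 2.24% and 1.95% of all regions in each place. Of the lost regions 91 were at coding ends, 82 at other ends and 673 away, or 0.643%, 2.75% and 5.11%. H3K27me3 marked 208 of the 260 gained regions at coding ends and 116 of the 257 away (45.1%). It marked 3 of the 91 lost regions at coding ends and 49 of the 673 away (7.28%). Of all regions it marked 31.4% at coding ends and 16.6% away. The counts depend on each library. Without EPZ011989 replicates 1 and 2, gained regions numbered 2949 and 3125, of which 27.9% and 35.1% were marked. Without vehicle replicates 1 and 2 they numbered 850 and 963, with 58.5% and 55.7% marked. Lost regions numbered 2268 and 995 without EPZ011989 replicates 1 and 2, and 3793 and 3040 without vehicle replicates 1 and 2, of which 6.84% to 9.83% were marked.

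Gained and lost peaks were small. The median gained region was covered over 637.5 and 486 bp in the 2 EPZ011989 libraries, with 14 and 10 fragments at the summit. The median lost region was covered over 435 and 441 bp in vehicle, with 7 and 8 fragments. At least 1000 bp were covered in both libraries at 39 gained regions and 3 lost regions. A peak in 1 library only was found at 2079 regions at coding ends and 6505 away. At 1379 regions, 972 of them away, a peak was missing from EPZ011989 replicate 2 only.

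**Figure D4:**
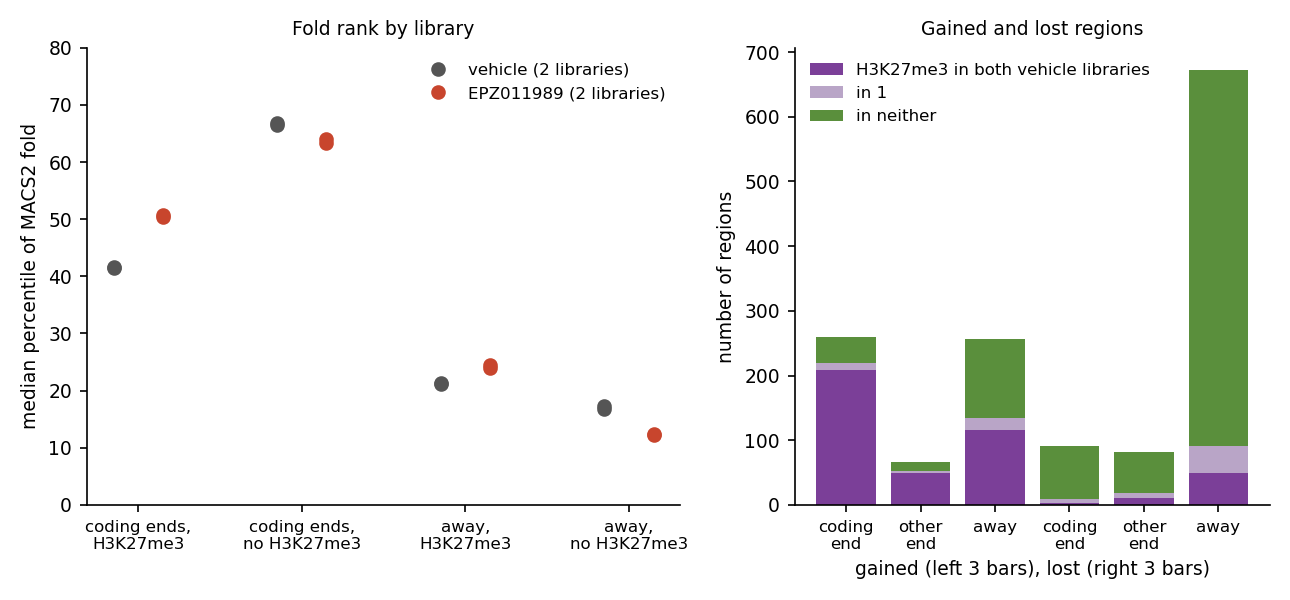
Left, median percentile of MACS2 fold (y axis) in each library for regions at coding gene ends and away from gene ends, with and without vehicle H3K27me3; each point is 1 library. Marked coding ends stood at 41.5 and 41.6 in vehicle and 50.8 and 50.4 with EPZ011989. Right, number of gained and lost regions by place, coloured by overlap with vehicle H3K27me3 peaks: 260 gained and 91 lost regions lay at coding ends, 257 and 673 away.

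Of the 10 widest gained regions at gene ends 9 were H3K27me3-marked. GRIN1, the obligate subunit of NMDA-type glutamate receptors, gained 2783 and 1474 bp. LRFN1, a synaptic adhesion protein, gained 2039 and 1326 bp. Neither region had a vehicle peak. RASGRP2, an activator of the small GTPase RAP1, gained a region over its printed start that spanned 3094 and 2559 bp with 13 and 10 fragments at the summit.

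The widest gained region, at GRXCR1, a gene of hair cell stereocilia, was the 1 unmarked region of the 10 and spanned 4366 and 3789 bp. Others were at YPEL4, TMEM132C and AMN and at the non-coding LINC02323, with 1070 to 2162 bp in either library. Away from gene ends the widest gains lay in NHSL1, EPS8L2, TAL1 and RNF220. The region in TAL1, a transcription factor of blood formation, spanned 1245 and 1803 bp, and 3 of these 4 regions were marked, the exception being that in NHSL1.

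The 10 widest lost regions at gene ends were all unmarked. DAND5, an antagonist of Nodal and BMP ligands, lost a region over its printed start that spanned 853 and 976 bp, with 13 and 11 fragments. BIRC5, the gene of the mitotic protein survivin, lost 996 and 848 bp inside the gene, 342 bp from its end. DNAJA1, a co-chaperone, lost 1951 and 631 bp at 2434 bp from its start. The others were near TTC16, RABEPK, SNHG14 and 4 uncharacterised genes, with 640 to 1214 bp in either library. Away from gene ends the widest losses lay in CSMD3, with 2141 and 1556 bp, and in MAML1, MAP4K4 and NAB1, all unmarked.

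The RefSeq windows also allowed the CG content of these sets to be compared with the printed promoters. Windows in regions whose rank rose had a median of 29 CG over 1365 starts, and those in regions whose rank fell 27 over 1401 starts. Gained regions held 96 starts with a median of 29 CG, whereas lost regions held 6 starts with a median of 6. The TATA box letters TATAAA, searched on both strands, occurred in none of the 5 printed windows. They occurred in 9.71% of all 15101 windows, in 4.83% of those in regions with peaks in all 4 libraries and in 4 of the 18 windows in regions that widened. A match of letters is a description and not a binding site.

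Total covered length did not separate the groups. At coding gene ends peaks covered 30.0 and 30.5 Mb in vehicle and 33.7 and 29.4 Mb with EPZ011989, a mean of 30.2 ± 0.325 Mb against 31.6 ± 3.02 Mb (SD, n = 2 each; log2 ratio 0.06, exact two-sided permutation p = 1). Away from gene ends they covered 6.92 and 7.37 Mb in vehicle and 7.84 and 5.80 Mb with EPZ011989 (log2 ratio −0.07, exact p = 1). In both places EPZ011989 replicate 1 was the highest and EPZ011989 replicate 2 the lowest of the 4 libraries. Without EPZ011989 replicate 1 the ratio at coding ends was −0.04, and without EPZ011989 replicate 2 the ratio away was 0.14. The median log2 width difference over regions was 0.03 at coding ends and 0.02 away, and without EPZ011989 replicate 1 it was −0.05 and −0.10.

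In the lists of developmental transcription factors many regions rose in rank and none fell. The lists were chosen with earlier results of these data known, so their direction is not independent evidence. The region counted for a gene is the one with the most covered bases at its ends. Of the 15726 regions tested, 13.6% rose and 11.4% fell, and the median change was −0.79 percentile points. At marked coding gene ends 30.9% rose and 5.90% fell, with a median of 6.00 points. Of the genes with a region, 25 HOX genes, 45 other homeobox genes and 28 other developmental transcription factors were marked. There were 26 HOX genes with a peak in all 4 libraries, and they share 16 regions. Of the 26 genes, 16 rose and none fell, with a median change of 12.4 points. Genes that share a region are each counted, and the number of separate HOX regions that rose was not counted. HOXC13 rose by 32.9 points, from percentiles 55.8 and 69.4 to 95.5 and 95.4. HOXD11 and HOXD12 share a region that spanned 874 and 1651 bp in vehicle and 4900 and 4576 bp with EPZ011989, and its widening passed the test (adjusted p = 0.04). HOXC8 and HOXC11 gained peaks, with 620 and 835 bp and 1117 and 817 bp. HOXB1 to HOXB4 had no region, and HOXB5 to HOXB9 and HOXB13 had a peak in 1 library only.

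Of 50 other homeobox genes tested, 27 rose and none fell, with a median change of 12.4 points, and 5 widened. POU3F3, a POU-domain factor of the nervous system, went from percentiles 33.96 and 36.7 to 74.1 and 79.8 and from 2827 and 2248 bp to 6752 and 4944 bp (adjusted p = 0.045 for width). LHX1, DLX5 and LMX1B widened too, each with an adjusted p of 0.04. IRX4, EN1, VAX1, TLX2, ALX4 and GSC gained peaks, at marked regions in each case. Of the 35 other developmental transcription factors tested, 18 rose and none fell, with a median of 13.0 points. SOX11 rose from percentiles 25.6 and 36.1 to 71.4 and 80.7, and GATA2 from 24.0 and 23.2 to 58.6 and 77.2. ZEB2, a factor of epithelial-mesenchymal transition, widened from 1649 and 1918 bp to 3544 and 3461 bp (adjusted p = 0.045).

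Lists of developmental signalling genes also held more rises than falls. Of their genes with a region, 23 of the WNT list and 28 of the BMP, TGF-beta and hedgehog list were marked. Over all marked regions at coding gene ends 30.9% rose and 5.90% fell, with a median change of 6.00 points. Of 24 WNT ligands, receptors and antagonists tested, 9 rose and 2 fell, with a median of 7.81 points. WNT7A and FZD2 are described above. FZD4, another receptor, went from percentiles 39.6 and 35.6 to 70.9 and 79.0, and LEF1, a transcription factor of the pathway, from 29.3 and 26.9 to 68.7 and 59.0. AXIN2, a target gene and inhibitor of the pathway with H3K27me3 in 1 vehicle library, stood at 88.0 and 90.7 in vehicle and at 99.8 and 99.9 with EPZ011989. DKK4 and WNT8B, both unmarked, fell by 17.2 and 10.7 points. Of 29 BMP, TGF-beta and hedgehog genes, 13 rose and 1 fell, with a median of 10.8 points. NOG, the BMP antagonist noggin, widened from 2678 and 1935 bp to 5408 and 4986 bp (adjusted p = 0.04) and rose by 35.2 points. Its fellow antagonist CHRD gained a peak of 1644 and 898 bp. BMP8A fell by 33.6 points, from 82.6 and 88.7 to 61.7 and 42.3.

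**Figure D5:**
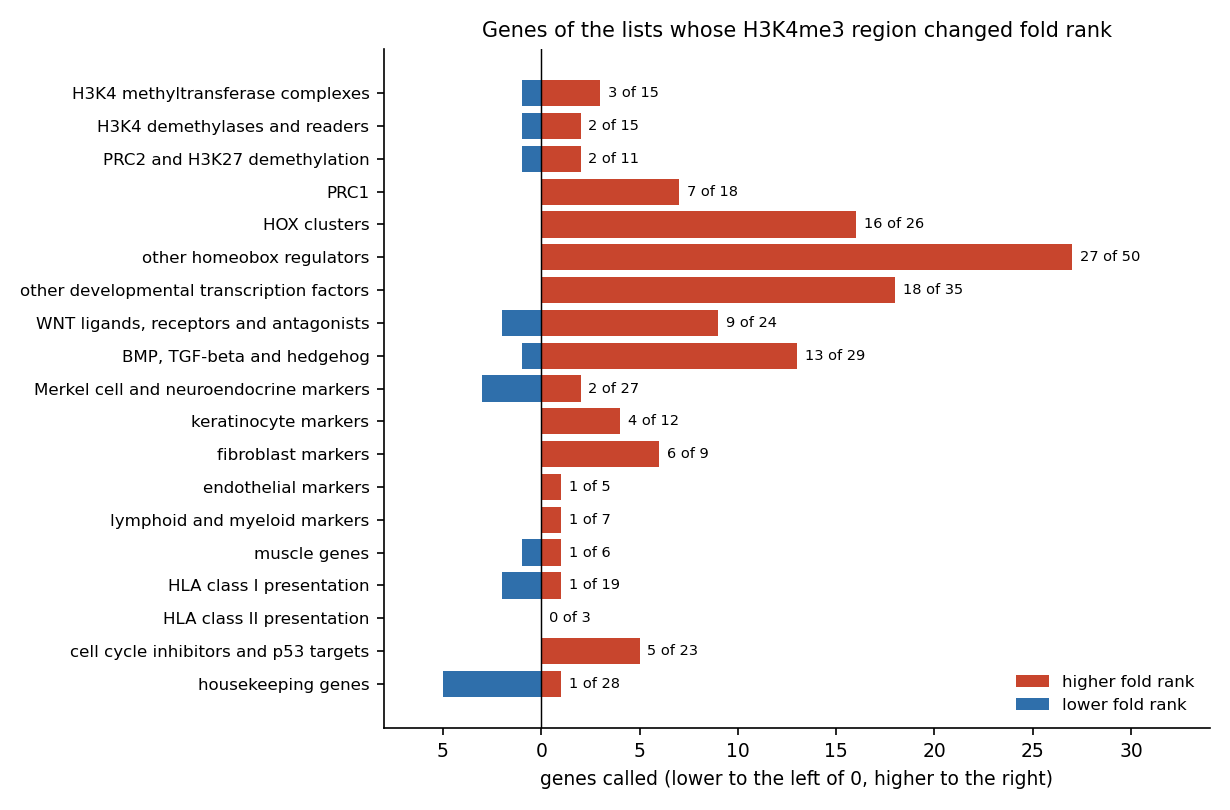
Number of genes (x axis) in each of the 19 gene lists whose H3K4me3 region rose in fold rank (red, right) or fell (blue, left) with EPZ011989, by limma adjusted p under 0.05. The text gives the genes that rose of those tested: 16 of 26 HOX genes, 27 of 50 other homeobox genes and 1 of 28 housekeeping genes. Genes that share a region are each counted.

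Few genes of the H3K4 methylation machinery passed the test. Of 15 genes of H3K4 methyltransferase complexes tested, 3 rose and 1 fell, and 2 of the list were marked. Over all regions 13.6% rose and 11.4% fell, and over unmarked coding gene ends 8.03% and 16.1%. With 15 genes no difference from these shares was tested. KMT2D, a catalytic subunit, rose from percentiles 76.8 and 73.9 to 87.3 and 95.2, and its partners PAGR1 and NCOA6 rose by 14.5 and 19.4 points. KMT2C, the paralog of KMT2D, fell from 35.3 and 29.6 to 19.97 and 18.0 (adjusted p = 0.0125). KMT2A stood at 90.4, 95.4, 97.8 and 98.2, KMT2B at 78.4, 76.0, 79.6 and 79.0, and SETD1A at 56.8, 73.2, 84.3 and 80.7, vehicle libraries first. Their adjusted p was 0.0622, 0.828 and 0.063. Of 15 H3K4 demethylases and readers tested, 2 rose and 1 fell, and 2 of the list were marked. KDM5B, an H3K4 demethylase and a marked region, rose from 50.1 and 56.9 to 79.6 and 89.3 (adjusted p = 0.00287). PHF2, which binds H3K4me3, rose by 20.3 points and the reader ING5 fell by 26.4.

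Of 11 genes of PRC2 and H3K27 demethylation tested, 2 rose and 1 fell. The shares over all regions tested were 13.6% and 11.4%, and over marked coding gene ends 30.9% and 5.90%. Of the genes with a region, 3 of this list were marked. EZH2, the target of the inhibitor, stood at percentiles 83.9, 84.8, 80.4 and 72.2, vehicle libraries first (adjusted p = 0.327). Its partners EED and SUZ12 stood at 88.4, 88.7, 94.2 and 89.8 and at 40.8, 32.0, 39.6 and 43.2. Neither passed the test. EZH1, the paralog that can replace EZH2 in the complex and a marked region, rose from 56.8 and 75.2 to 90.04 and 92.7 (adjusted p = 0.00479). KDM6B, an H3K27 demethylase, rose by 19.4 points, and MTF2, a PRC2 accessory subunit, fell by 18.4. Of 18 genes of PRC1, the Polycomb complex that binds H3K27me3, 7 rose and none fell, and 6 genes of the list were marked. No test was made of these shares. RYBP rose from 45.04 and 44.1 to 78.0 and 75.2 (adjusted p = 0.00197). CBX2 and BMI1, both marked, rose by 20.2 and 22.6 points.

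The marker genes of the labelled cell type carried H3K4me3 in every library. Of 15 fixed Merkel cell and neuroendocrine markers, 14 were in the gene table for these chromosomes and all 14 had a peak in all 4 libraries. ISL1 was covered over 24011 to 25134 bp and INSM1 over 10731 to 11995 bp in the 4 libraries. Of the 14, KRT20 fell in rank, from percentiles 54.9 and 43.5 to 28.9 and 39.5 (adjusted p = 0.0402), and none rose. In the longer list of 27 neuroendocrine genes tested, 2 rose, among them SSTR2, and 3 fell, KRT20, UCHL1 and SCG2. Over all regions tested 13.6% rose and 11.4% fell. The median change was 5.89 points for the 14 markers and 5.77 for the 27 genes, against −0.79 over all regions tested.

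Of the defining markers of other cell types, a peak in all 4 libraries was found at 1 of 6 keratinocyte, 3 of 7 fibroblast, 1 of 5 endothelial, 3 of 7 lymphoid and myeloid and 1 of 4 muscle markers. No region was found at KRT5, KRT14, KRT1, TP63 and IVL of keratinocytes, at PTPRC, CD3E and MS4A1 of blood cells, or at PECAM1, TEK and VWF of endothelium. Of the markers with such peaks, COL1A1 and COL1A2 of fibroblasts and MYOD1 of muscle, all marked, rose in rank and none fell. MYOD1 went from percentiles 0.572 and 3.70 to 21.2 and 14.8. The blood cell markers CD14, CD68 and SPI1 did not pass the test, with changes of −2.10, −13.9 and 5.46 points. In the longer lists, chosen with the data known, further genes rose. For comparison, 13.6% of all regions tested rose and 11.4% fell, and at marked coding gene ends 30.9% and 5.90%. Of 9 fibroblast genes tested 6 rose, and 10 of the 11 with a region were marked. COL1A1 went from percentiles 25.6 and 22.3 to 48.5 and 44.3. Of 12 keratinocyte genes tested 4 rose and none fell, and 7 genes of the list were marked. DSP, encoding desmoplakin, widened from 1147 and 1206 bp to 2580 and 2516 bp (adjusted p = 0.0477). Of 7 lymphoid and myeloid genes tested 1 rose and none fell, with a median change of 0.14 points. In that list 17 of 25 genes had no region and 1 lost its peak. CD4 of this list, a coreceptor of T cells, rose by 35.9 points and widened from 779 and 567 bp to 2038 and 2473 bp (adjusted p = 0.0472). Of 5 endothelial genes tested 1 rose and none fell, and 13 of the 20 listed had no region. The endothelial receptor KDR gained a peak of 721 and 363 bp. Of 6 muscle genes tested 1 rose and 1 fell, another lost its peak, and 3 of the list were marked. Of 19 HLA class I presentation genes tested 1 rose and 2 fell, and 8 of the list were marked.

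Of 28 housekeeping genes, 2 of them marked, 1 rose and 5 fell, with a median change of −1.85 points. Over all unmarked regions at coding gene ends 8.03% rose and 16.1% fell, with a median of −3.33 points. VCP, an ATPase of protein quality control, went from percentiles 94.7 and 93.9 to 67.8 and 61.4 (adjusted p = 0.000619), and TBP, the TATA-binding protein, from 95.2 and 97.9 to 77.0 and 67.6. Of 23 cell cycle inhibitors and p53 targets, 5 rose and none fell, with a median of 0.46 points. SESN2, a stress response gene, went from 59.6 and 55.1 to 94.5 and 96.2, and FDXR, a mitochondrial reductase, from 53.04 and 54.2 to 90.04 and 89.8. Both were marked. CDKN1A and CDKN1C, inhibitors of cyclin-dependent kinases, rose by 13.1 and 13.8 points.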

How the data were processed

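CUT&RUN in MKL-1 cells gave 12 libraries, of which the 4 H3K4me3 lists were compared and the H3K27me3 and IgG lists were used for position only. The submitters' processing notes name MACS2 (version 2.1.1.20160309), Bowtie2 (version 2.2.9) and SAMtools (version 0.1.19) with the build hg38; the MACS2 settings, any control and any use of the E. coli spike-in are not given in the sources used here. The authors' deposited peak lists give each peak a fold enrichment at its summit and −log10 p and q values, with 1 list per library. Read totals are unknown, and the summit fragments recovered from fold were used as a description. The fold of different libraries is not on one scale, so it was ranked within each library. Only chromosomes 1 to 22 were used, which left out 577 to 646 peaks a library.

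Peaks of the 4 libraries overlapping by at least 1 bp were merged, and a library's width in a region is its covered bp. Gene ends came from a RefSeq gene table without strand (56756 genes, 19126 of them protein-coding), and starts and sequences from RefSeq promoters of GRCh38.p14 (26246 starts, none on chromosome 8). Log2 width and the normal score of the fold's rank were tested with limma 3.58.1 (R 4.3.3, trended and robust variances, vehicle against EPZ011989) over the 15726 regions with a peak in all 4 libraries, with Benjamini-Hochberg adjustment over all of them and a threshold of 0.05. Every adjusted p is from limma; single values per library used exact permutation tests, two-sided. The tests were tested on simulated data. Python 3.11.15, numpy 2.4.6, pandas 2.3.3, scipy 1.17.1 and matplotlib 3.10.9 were used.

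Named regions are, among those whose groups do not overlap, the 10 largest width differences each way at coding ends and 4 away, the 8 largest rank changes each way, the 10 widest gained and 10 widest lost regions at gene ends and 4 of each away, and 2 to 4 genes a list; the largest changes of rank in a list and the SESN2, FDXR, AXIN2 and marker genes were added after their values were seen. Some regions that this rule names are not reported here. The members and lists were chosen with earlier results of these data known. Alternatives covered the peak threshold, list length, merging, scaling, the distance to gene ends, the replicate number and each library left out.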

Additional observations from a re-analysis of the deposited data

How the results depend on the processing

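The counts of regions that changed fold rank stayed within 1.5 times the reported values in each alternative run, from 1500 to 2208 that rose and from 1214 to 1860 that fell. Of these runs, ranking by −log10 q could not differ from ranking by fold, since each list had 1 constant background. It gave the same 2144 and 1787 regions and the same adjusted p at the named regions. Width and presence depended more on the settings. With only peaks of −log10 q of at least 5, 13 regions were wider, 1 narrower and 345 lost; H3K27me3 marked 61.4% of those that rose in rank, 81.8% of the gained and 3.77% of the lost. Median centring of log2 widths gave 144 wider and 39 narrower regions, and quantile normalization 122 and 20. Merging peaks up to 1000 bp apart put the marked share of gained regions at 69.2%. The replicate numbers name duplicates, and the labels do not say whether they pair the groups. Replicate differences had a correlation between groups of −0.03 for width and −0.02 for percentile, which cannot decide how the cultures were run. With the number as a replicate block 112 regions were wider, 15 narrower, 2208 rose and 1860 fell in rank. Leaving out 1 library at a time, which leaves a lone library assumed to vary like the other group's pair, gave 0 to 198 wider, 1 to 31 narrower, 850 to 3125 gained and 995 to 3793 lost regions. Covered length ratios (log2) ran from −0.039 to 0.156 at coding ends, negative without EPZ011989 replicate 1, and from −0.298 to 0.135 away, positive without EPZ011989 replicate 2. Median width differences ran from −0.050 to 0.115 at coding ends and from −0.102 to 0.143 away, both negative without EPZ011989 replicate 1. Marked shares, whose alternatives were chosen after seeing the data, ran with 1 library left out from 58.7% to 72.7% of regions that rose in rank, 12.8% to 15.2% of those that fell, 27.9% to 58.5% of gained and 6.84% to 9.83% of lost regions. The cause of these shifts was not tested. Of the alternatives for single named regions, 343 kept the side of the threshold, 32 newly passed it, 14 no longer did and none turned direction. The 343 include the ranking by −log10 q, which could not differ. They also include width differences that failed the test in the main run and failed again. The 8 largest rises and 8 largest falls of rank passed in each, and the other genes named by rank were not rerun; WNT7A, NGFR, KCNA1, DAGLA, DLX2, PSMB2 and the ESRRB region each failed the width test in 2. At a −log10 q of at least 5 the width test could not be repeated at any of these widened or narrowed regions. Nor could it be at WNT7A and NGFR with lists of equal length. Depth of sequencing is unknown, and summits of gained and lost peaks held few fragments.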
